A study of Mus musculus with 2 samples.

Results

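The 43 collagen genes are the rows of the deposited count table whose symbol consists of Col, a type number, the letter a and a chain number, out of 27376 genes in all. The rule itself uses symbols and no measured value. They were grouped by the assembly their chains form into 11 fibrillar, 9 basement membrane, 9 network, 9 FACIT and 4 transmembrane collagens, with Col28a1 placed in none of these 5 classes. The type VI chains, which form beaded filaments, were placed with the network collagens, and types VII, XV and XVIII with the basement membrane. Colq and Emid2, a gene now named Col26a1, do not have such a symbol in the table and were not members. Emid2 had 96 reads in Met_Bcat and 76 reads in Bcat_Only, and Colq had 1 and 61 reads in the same order.

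RNA of prostate tumours from mice aged 16 months was sequenced, with 1 library of the genotype Met_Bcat and 1 library of the genotype Bcat_Only. Met_Bcat combines altered beta-catenin with MET, the receptor of hepatocyte growth factor, and Bcat_Only carries the beta-catenin change alone, as far as the genotype names go. The table's heading for the Bcat_Only library names a beta-catenin ex3Plus allele and PB Cre, PB being the usual short name of the probasin promoter, which is active in prostate epithelium. The heading for the Met_Bcat library names no allele or Cre driver, so how MET was altered is unknown here. RNA came from homogenised tissue, and the labels mention neither sorting nor how many mice gave each library. Met_Bcat had 20117724 and Bcat_Only 19301062 reads assigned to genes. Met had 166 CPM in Met_Bcat and 169 CPM in Bcat_Only, and Ctnnb1, the beta-catenin gene, had 974 CPM in Met_Bcat and 981 CPM in Bcat_Only, so neither count separates the genotypes. Levels in CPM are counts scaled to a common library size, here the TMM-scaled one. Because each genotype is 1 library, nothing could be tested: each difference is between these 2 libraries, and each interval is a 95% interval for counting error only. A gene is called lower or higher in Met_Bcat where the end of the interval of its ratio nearest to no difference is at least 2-fold, among genes averaging at least 1 CPM.

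Collagens are secreted or membrane-anchored proteins in which chains with repeated glycine-X-Y residues wind around each other. Fibrillar collagens, made mostly by fibroblasts, form the tensile fibres of the stroma. Type IV collagen forms the sheet under epithelia and around vessels and smooth muscle. FACIT collagens sit on fibril surfaces, network collagens form lattices or beaded filaments, and transmembrane collagens anchor cells to the matrix or are shed from the surface. In the prostate, a basement membrane and a stroma of fibroblasts and smooth muscle surround the glands.

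Collagen transcripts made up 0.278% of all reads in Met_Bcat (95% exact interval 0.276% to 0.281%) and 2.67% in Bcat_Only (2.67% to 2.68%). The make-up of this RNA differed as well. Fibrillar collagens accounted for 26.9% of collagen reads in Met_Bcat (26.5% to 27.2%) and for 79.7% in Bcat_Only (79.6% to 79.8%). Basement membrane collagens accounted for 45.5% in Met_Bcat (45.1% to 46.0%) and 8.55% in Bcat_Only (8.48% to 8.63%). Fewer stromal cells and less collagen RNA per cell cannot be told apart in RNA of whole tissue. Network collagens held 12.1% of collagen reads in Met_Bcat and 3.66% in Bcat_Only, FACIT collagens 9.68% and 7.81%, and transmembrane collagens 5.77% and 0.281%, each in the same order. These are shares of a smaller total in Met_Bcat: in CPM, the summed level was lower in Met_Bcat for every class but the transmembrane one, at 153 CPM in Met_Bcat and 78.6 CPM in Bcat_Only. Col1a1, Col1a2 and Col3a1, the 3 most abundant fibrillar genes of Bcat_Only, held 19.7% of collagen reads in Met_Bcat and 74.3% in Bcat_Only. They were thus picked by the library where they are high: in Met_Bcat, Col5a1 and Col5a2 had more reads than Col1a2.

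**Figure D1:**
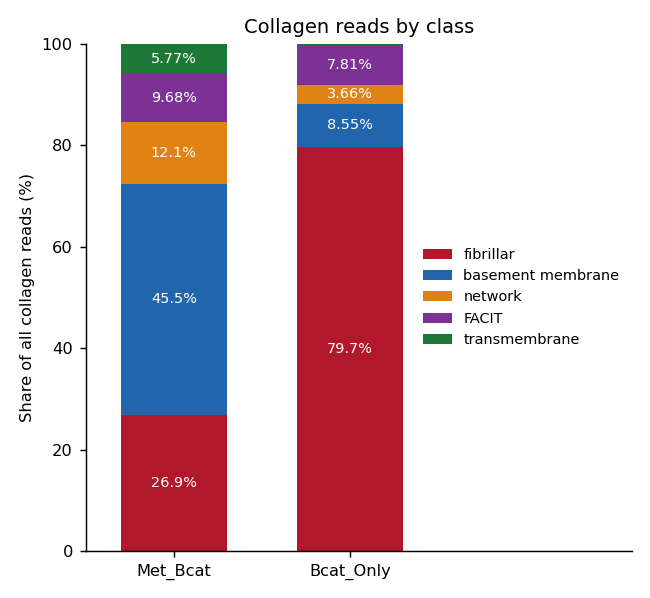
Share of all collagen reads (y axis, percent) held by each of 5 collagen classes in the Met_Bcat and the Bcat_Only library, 1 library each; Col28a1 is not drawn. Basement membrane collagens are the largest class in Met_Bcat at 45.5% and fibrillar collagens in Bcat_Only at 79.7%.

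Of the 43 members, 36 averaged at least 1 CPM, and 20 of these were lower, 5 higher and 11 neither. Among all 14354 genes at that level, 14.6% were lower and 4.42% higher, 2102 and 635 genes. These are also the shares to set beside each count by class or list below. With the libraries scaled to luminal epithelial markers, 2758 of 14209 genes were lower (19.4%) and 398 higher (2.80%). The median log2 ratio of Met_Bcat over Bcat_Only was −1.32 over the 36 collagen genes and 0.03 over all genes. Of the 36, 7 passed the minimum with less than 1 CPM in Met_Bcat and 1 with less than 1 CPM in Bcat_Only, so their place in the count depends on the library where they are high. Of the 28 members with at least 1 CPM in both libraries, 15 were lower and 4 higher, against 10.6% and 3.42% of the 13162 genes at that level in both. With a 4-fold rule 16 members were lower and 3 higher, against 7.57% and 1.75% of all genes. The plot of ratios by class shows that members of one class did not move alike.

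**Figure D2:**
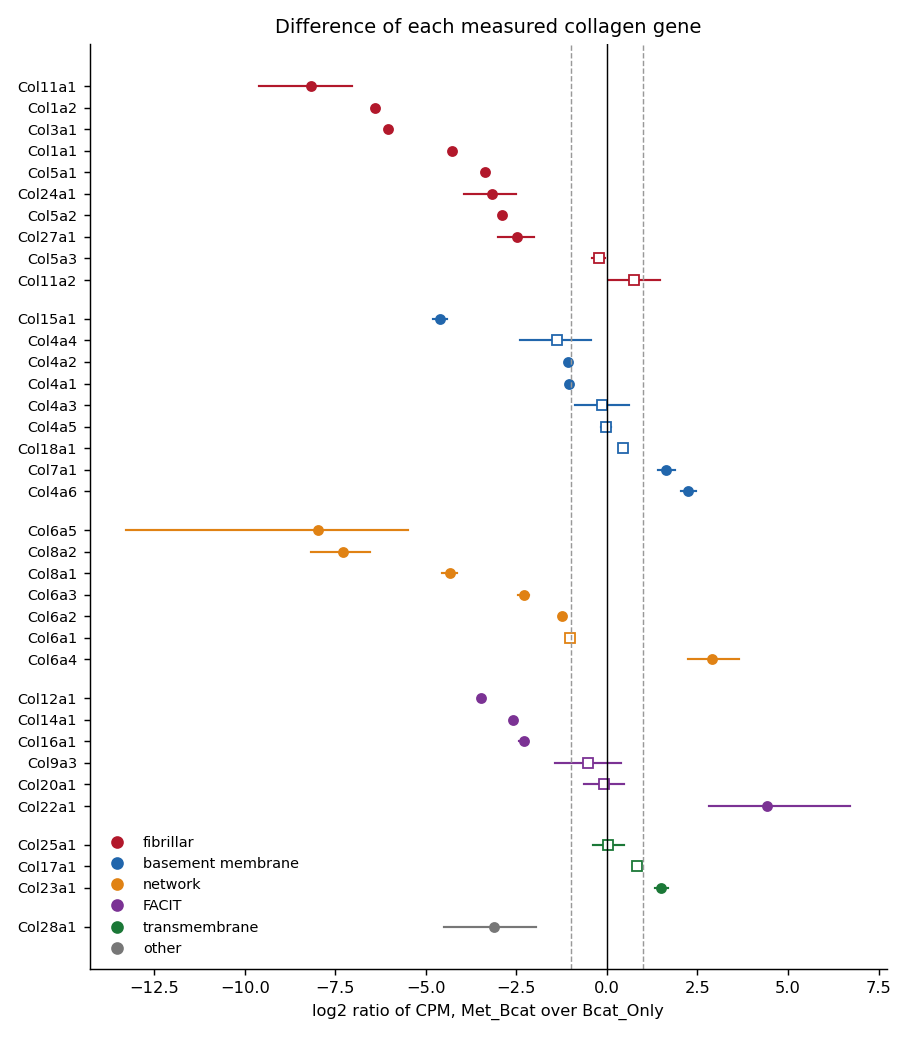
Log2 ratio of CPM, Met_Bcat over Bcat_Only (x axis), for the 36 collagen genes averaging at least 1 CPM, coloured by class; lines are 95% exact intervals for counting error, filled circles passed the 2-fold rule at the near end, open squares did not, and dashed lines mark 2-fold. The ratios span −8.17 for Col11a1 to 4.41 for Col22a1.

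The fibrillar genes were the class with the lowest median, −3.27, with 8 of 10 measured genes lower and 0 higher. Col3a1, whose chains form the type III fibres of distensible tissue (ENSMUSG00000026043, mm9 chromosome 1, 45368383 to 45406551), had 3361 reads in Met_Bcat and 193324 reads in Bcat_Only, 65.8-fold lower (63.6 to 68.1). By read count it stood at rank 1279 of all genes in Met_Bcat and at rank 2 in Bcat_Only. Col1a1, the α1 chain of type I collagen (ENSMUSG00000001506, chromosome 11, 94797538 to 94814356), had 6614 reads in Met_Bcat and 112944 in Bcat_Only, 19.5-fold lower (19.1 to 20.03). Col1a2, the α2 chain of the same protein (ENSMUSG00000029661, chromosome 6, 4454814 to 4491543), had 1042 reads in Met_Bcat and 76754 in Bcat_Only, 84.3-fold lower (79.3 to 89.7). The genes of the 2 chains of type I collagen thus differed in size of change, with log2 ratios of −4.29 for Col1a1 and −6.40 for Col1a2.

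The type V chains co-assemble with types I and III and help set fibril diameter. Col5a1 had 58.9 CPM in Met_Bcat and 602 CPM in Bcat_Only, 10.2-fold lower (9.65 to 10.9). Col5a2, whose gene lies next to Col3a1 on chromosome 1 with 24.6 kb and no other gene of the table between them, had 105 CPM in Met_Bcat and 786 CPM in Bcat_Only, 7.50-fold lower (7.17 to 7.85). This neighbour of Col3a1 thus had a log2 ratio of −2.91, where Col3a1 had −6.04. Col5a3, the third type V chain, had 21.6 CPM in Met_Bcat and 25.3 CPM in Bcat_Only and was not called. Col11a1, a chain of cartilage collagen that is also expressed by activated fibroblasts (ENSMUSG00000027966, chromosome 3, 113733458 to 113923636), had 6 reads in Met_Bcat and 1514 reads in Bcat_Only, 289-fold lower (132 to 788), the lowest ratio of the family. Its partner Col11a2 had 54 reads in Met_Bcat and 28 in Bcat_Only and was not called. Col24a1 and Col27a1, fibrillar genes with a shorter collagen repeat, were both lower. Col24a1 had 20 reads in Met_Bcat, less than 1 CPM, and 159 in Bcat_Only, 9.09-fold lower (5.69 to 15.3). Col27a1 had 44 reads in Met_Bcat and 217 in Bcat_Only, 5.64-fold lower (4.06 to 7.99). Col2a1, the main collagen of cartilage, had 3 reads in Met_Bcat and 0 in Bcat_Only. Cartilage and bone markers varied: the aggrecan gene Acan had 6 and 3 reads in Met_Bcat and Bcat_Only, and Matn1 had 0 in both. Comp, however, had 4 and 77 reads in that order and was lower. Sox9 had 3302 and 2364 reads and Runx2 348 and 463, and neither was called.

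**Figure D3:**
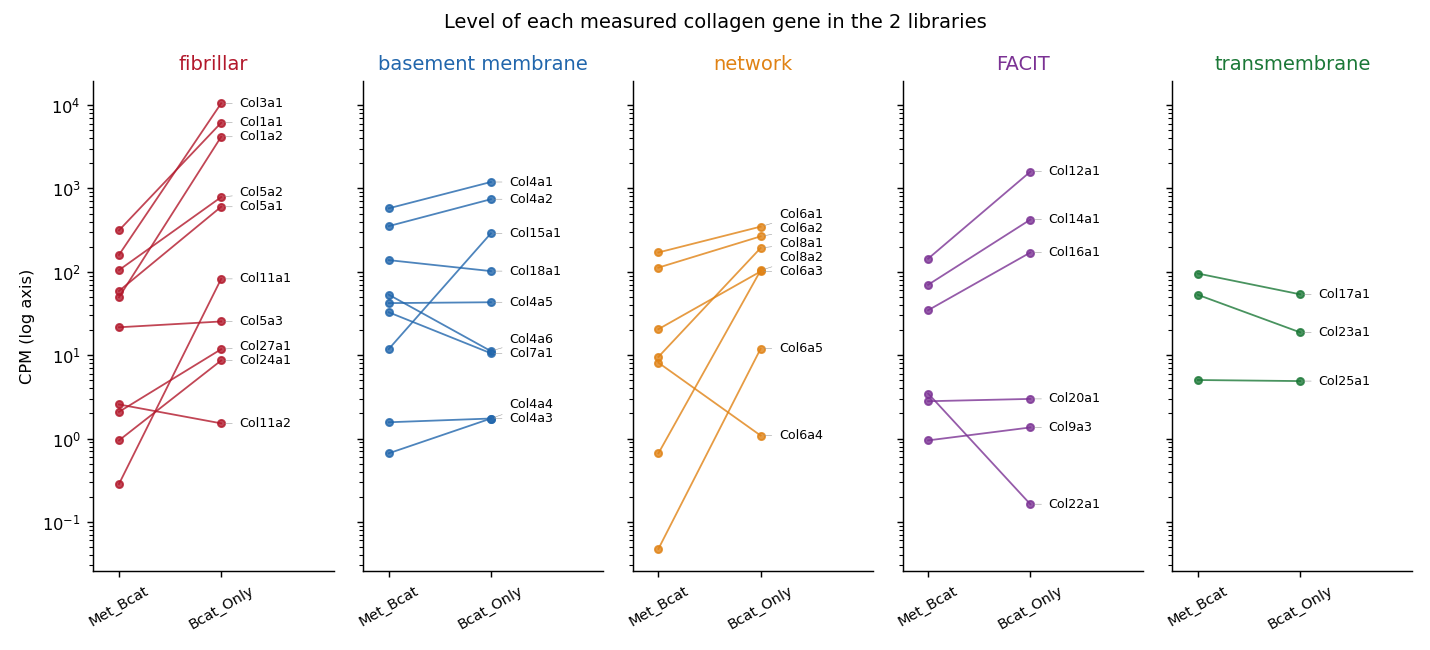
Level of each collagen gene averaging at least 1 CPM (y axis, CPM on a log axis) in the Met_Bcat library (left point) and the Bcat_Only library (right point), with 1 panel per class; Col28a1 is not drawn. Most lines of the fibrillar panel climb steeply to the right, whereas the lines of Col4a6, Col7a1, Col6a4, Col22a1 and Col23a1, the 5 genes called higher, descend.

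The proximal promoters of Col1a2 and Col3a1 are shown because these genes had the largest differences among abundant collagens and lie on different chromosomes. Each is the RefSeq window on GRCm38.p6 of 250 bases before and 50 bases after the annotated start, whereas the counts use mm9. Of the 43 members 35 had a window, 38 windows in all; Col1a1, Col2a1, Col4a3, Col5a2, Col9a3, Col12a1, Col14a1 and Col22a1 had none. Capitals mark matches on either strand of 3 motifs, which can overlap. The motif CCAAT is bound by NF-Y. The letters TATAA resemble the TATA box. Factors of the Sp1 type bind GGGCGG. The Col1a2 window (chr6:4505368-4505667, plus strand) held 2 CCAAT and 2 GGGCGG matches and the Col3a1 window (chr1:45311288-45311587, plus strand) 2 overlapping TATAA matches, with 61.0% and 37.7% G and C.
Col1a2: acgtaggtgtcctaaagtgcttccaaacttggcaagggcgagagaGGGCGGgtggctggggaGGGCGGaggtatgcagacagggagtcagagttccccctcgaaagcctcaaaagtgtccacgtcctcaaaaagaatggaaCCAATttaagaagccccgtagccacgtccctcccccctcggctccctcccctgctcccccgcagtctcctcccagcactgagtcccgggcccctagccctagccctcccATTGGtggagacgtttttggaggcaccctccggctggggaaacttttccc
Col3a1: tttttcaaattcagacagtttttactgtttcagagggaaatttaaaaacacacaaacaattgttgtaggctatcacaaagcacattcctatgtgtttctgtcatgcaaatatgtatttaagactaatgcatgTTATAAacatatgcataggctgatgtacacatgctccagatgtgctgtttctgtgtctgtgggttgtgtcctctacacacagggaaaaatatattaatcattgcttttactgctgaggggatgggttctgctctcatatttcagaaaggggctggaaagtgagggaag
Among the 38 collagen windows 34.2% held CCAAT, 18.4% TATAA and 60.5% GGGCGG. Among all 32851 windows of the same length the shares were 37.4%, 24.9% and 35.7% in that order. A match describes the letters of the window and not the binding of a factor.

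The basement membrane collagens were divided, with a median log2 ratio of −0.15, 3 of 9 lower, 2 higher and 4 neither. Col4a1 and Col4a2 encode the α1 and α2 chains of the common type IV trimer. Col4a1 (ENSMUSG00000031502, mm9 chromosome 8, 11198423 to 11312826) had 12158 reads in Met_Bcat and 21989 in Bcat_Only, 2.07-fold lower (2.02 to 2.12). Col4a2 (ENSMUSG00000031503, chromosome 8, 11312805 to 11449287) had 7438 reads in Met_Bcat and 13667 in Bcat_Only, 2.102-fold lower (2.04 to 2.16). Both lay just past the 2-fold rule and neither passed it when libraries were scaled to total counts, with log2 ratios of −0.91 and −0.94. Per kilobase of exon, Col4a1 was the highest collagen of Met_Bcat at 84.6 CPM per kb and the fourth of Bcat_Only at 175 CPM per kb.

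Col4a5 and Col4a6 encode chains of a second type IV network found in the basement membranes of some epithelia and of smooth muscle. Col4a6 (ENSMUSG00000031273, chromosome X, 137599946 to 137908619) had 1121 reads in Met_Bcat and 206 in Bcat_Only, 4.76-fold higher (4.10 to 5.55). Col4a5 (ENSMUSG00000031274, chromosome X, 137909928 to 138123778) had 887 reads in Met_Bcat and 794 in Bcat_Only, a log2 ratio of −0.03 (−0.17 to 0.11) that turned to 0.10 with total counts. Col4a3 and Col4a4, chains best known from the kidney glomerulus, were weakly expressed, with 33 and 14 reads in Met_Bcat and 32 reads each in Bcat_Only, and were not called. Type IV chains therefore ranged from 2.61-fold lower for Col4a4 (1.36 to 5.30), which was not called, to 4.76-fold higher for Col4a6.

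The type IV genes lie head to head in pairs, and their promoters are shown because one pair had matching ratios and another did not. The annotated starts of Col4a1 and Col4a2 are 21 bases apart, and their windows (chr8:11312777-11313076, minus strand, and chr8:11312555-11312854, plus strand, GRCm38.p6) share 78 bases. The starts of Col4a6 and Col4a5 are 1343 bases apart, and their windows (chrX:141474027-141474326, minus strand, and chrX:141475169-141475468, plus strand) share none. Capitals have the same meaning as for Col1a2.
Col4a1: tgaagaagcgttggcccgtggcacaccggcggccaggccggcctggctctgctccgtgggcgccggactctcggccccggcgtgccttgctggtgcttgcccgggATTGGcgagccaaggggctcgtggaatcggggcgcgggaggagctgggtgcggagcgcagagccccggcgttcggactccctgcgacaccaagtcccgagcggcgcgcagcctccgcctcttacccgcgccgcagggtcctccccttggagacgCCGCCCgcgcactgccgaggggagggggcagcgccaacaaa
Col4a2: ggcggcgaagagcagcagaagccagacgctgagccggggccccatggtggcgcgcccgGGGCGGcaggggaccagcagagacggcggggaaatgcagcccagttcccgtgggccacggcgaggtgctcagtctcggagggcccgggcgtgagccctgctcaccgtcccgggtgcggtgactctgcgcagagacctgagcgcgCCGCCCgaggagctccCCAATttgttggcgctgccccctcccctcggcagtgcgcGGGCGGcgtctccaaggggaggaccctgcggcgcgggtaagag
Col4a6: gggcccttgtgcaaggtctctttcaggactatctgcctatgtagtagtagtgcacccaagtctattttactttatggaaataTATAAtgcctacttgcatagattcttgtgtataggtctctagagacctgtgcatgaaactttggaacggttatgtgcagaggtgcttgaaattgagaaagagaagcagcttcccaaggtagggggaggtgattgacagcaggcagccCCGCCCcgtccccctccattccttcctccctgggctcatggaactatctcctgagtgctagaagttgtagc
Col4a5: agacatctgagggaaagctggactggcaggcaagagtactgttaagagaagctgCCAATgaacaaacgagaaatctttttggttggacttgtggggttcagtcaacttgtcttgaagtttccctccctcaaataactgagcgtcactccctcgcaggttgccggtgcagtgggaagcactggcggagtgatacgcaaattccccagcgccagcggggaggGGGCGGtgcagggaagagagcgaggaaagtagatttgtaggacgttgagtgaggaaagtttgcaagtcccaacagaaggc
The Col4a1 and Col4a2 windows were 74.0% and 73.7% G plus C and held 0 TATAA matches, with 1 CCAAT match in each. The Col4a6 window held 48.3% G and C, 1 TATAA match and 0 CCAAT matches, and the Col4a5 window 52.7% G and C, 0 TATAA matches and 1 CCAAT match. Other starts of these genes are not in the table of windows.

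The remaining basement membrane genes also went both ways. Col7a1, the anchoring fibril that ties stratified epithelium to the stroma, had 689 reads in Met_Bcat and 194 in Bcat_Only, 3.10-fold higher (2.64 to 3.66). Col15a1 and Col18a1 are the multiplexins, and a fragment of Col18a1 is endostatin. Col15a1 had 249 reads in Met_Bcat and 5324 in Bcat_Only, 24.5-fold lower (21.5 to 27.9). Col18a1 had 138 CPM in Met_Bcat and 102 CPM in Bcat_Only, 1.35-fold higher (1.28 to 1.44) and below the rule. The related pair thus lay on opposite sides of no difference. When scaled to luminal markers, however, Col18a1 had a log2 ratio of 0.05 (−0.03 to 0.13). Col18a1 overlaps Slc19a1 on the other strand over 8825 bases, and no source used here gives the strand setting of the counting.

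Of the 7 measured network genes 5 were lower and 1 higher, with a median of −2.30. The type VIII chains, which form hexagonal lattices made by endothelial, smooth muscle and other mesenchymal cells, were both lower. Col8a2 had 14 reads in Met_Bcat and 1910 in Bcat_Only, 156-fold lower (92.8 to 286), and Col8a1 had 201 reads in Met_Bcat and 3551 in Bcat_Only, 20.2-fold lower (17.5 to 23.4). Col10a1, a marker of hypertrophic cartilage below the minimum level, had 2 reads in Met_Bcat and 33 in Bcat_Only, a ratio of 18.9-fold (4.83 to 162), but it lies within Nt5dc1 on the other strand.

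Type VI collagen differed by chain. The classic trimer consists of the products of Col6a1, Col6a2 and Col6a3. Col6a3 had 432 reads in Met_Bcat and 1859 in Bcat_Only, 4.92-fold lower (4.43 to 5.48). Col6a2 had 2365 reads in Met_Bcat and 4899 in Bcat_Only, 2.37-fold lower (2.26 to 2.49). Col6a1 had 3594 reads in Met_Bcat and 6409 in Bcat_Only and was 2.04-fold lower (1.96 to 2.13), just short of the rule, which it passed when the libraries were scaled to luminal epithelial markers.

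The chains that can replace the α3 chain, encoded by Col6a4, Col6a5 and Col6a6, form a tandem row on mm9 chromosome 9, all on the minus strand and with no other gene of the table between them. Col6a4 (105891785 to 105999114) had 171 reads in Met_Bcat and 20 in Bcat_Only, 7.47-fold higher (4.69 to 12.5). Col6a5 (105758400 to 105862974), 28.8 kb away, had 1 read in Met_Bcat and 220 in Bcat_Only, a ratio of 252-fold (44.7 to 9985). Col6a6 (105591747 to 105730415) had 0 reads in Met_Bcat and 1 in Bcat_Only, at or under the floor of 3 reads. Neighbouring genes of this row were thus called in opposite directions, at low counts.

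Of the 6 measured FACIT genes 3 were lower and 1 higher, with a median of −1.41. Col12a1, a fibril-associated collagen of dense connective tissue, had 3029 reads in Met_Bcat and 29238 in Bcat_Only, 11.04-fold lower (10.6 to 11.5). The related Col14a1 had 1473 reads in Met_Bcat and 7783 in Bcat_Only, 6.04-fold lower (5.72 to 6.39). Col16a1 had 729 reads in Met_Bcat and 3136 in Bcat_Only, 4.92-fold lower (4.54 to 5.34). The 3 abundant members were thus all lower. Col22a1, a collagen of tissue junctions such as that of muscle and tendon, had 73 reads in Met_Bcat and 3 in Bcat_Only, a ratio of 21.3-fold (6.997 to 106). Col20a1, with 59 and 55 reads in Met_Bcat and Bcat_Only, and Col9a3, with 20 and 25, were not called, and the sign of the Col20a1 ratio turned with total counts. Below the minimum, Col19a1 had 25 reads in Met_Bcat and 3 in Bcat_Only, Col9a2 had 12 and 18 and Col9a1 had 2 and 0 in that order.

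In the transmembrane class 1 of 3 measured genes was higher and 0 were lower. Col23a1 had 1115 reads in Met_Bcat and 346 in Bcat_Only, 2.82-fold higher (2.49 to 3.19), and missed the rule when scaled to luminal markers, with a log2 ratio of 1.11. Col17a1, the hemidesmosome collagen of basal epithelial cells, had 2008 reads in Met_Bcat and 989 in Bcat_Only, 1.77-fold higher (1.64 to 1.92) and below the rule. Col25a1, known from neurons, had 106 and 90 reads in Met_Bcat and Bcat_Only and was not called, and its ratio turned below 0 when scaled to luminal markers. Col13a1, below the minimum, had 4 reads in Met_Bcat and 23 in Bcat_Only, a ratio of 6.58-fold (2.25 to 26.2) that would count as lower with no minimum. Col28a1, which belongs to none of the 5 classes and is known from peripheral nerve, had 7 reads in Met_Bcat and 53 in Bcat_Only, 8.66-fold lower (3.92 to 22.6).

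Markers of basal epithelium moved with the higher members. Krt5 had 762 CPM in Met_Bcat and 157 CPM in Bcat_Only, Krt14 298 and 54.5 CPM and Trp63 99.6 and 30.7 CPM in that order. Of the 7 markers in the list 3 were higher and 1, Krt15, was lower, against 4.42% and 14.6% of all measured genes. Their summed level was 1559 CPM in Met_Bcat and 773 CPM in Bcat_Only. The part of basal cells in the ratios of Col4a6, Col7a1, Col17a1 and Col23a1 was not tested.

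Ratios between chain genes within a library do not depend on library scaling. They were taken per base of exon, using the exon length in the deposited table. Col4a1 to Col4a2 was 1.59 in Met_Bcat (1.54 to 1.63) and 1.56 in Bcat_Only (1.53 to 1.60), a quotient of 1.02 (0.98 to 1.05). This pair therefore kept its proportion within counting error. Col6a1 to Col6a2 was 2.88 in Met_Bcat (2.73 to 3.03) and 2.48 in Bcat_Only (2.39 to 2.57), a quotient of 1.16 (1.09 to 1.24). Col1a1 to Col1a2, whose products assemble as a trimer with more α1 than α2 chains, was 11.7 in Met_Bcat (11.003 to 12.5) and 2.72 in Bcat_Only (2.70 to 2.75), a quotient of 4.31 (4.04 to 4.61). The exon length of Col1a2 in the table, 12145 bases, enters both libraries alike, so the level of each ratio depends on it but the quotient does not.

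Other pairs shifted too. Col3a1 to Col1a1 was 0.397 in Met_Bcat (0.381 to 0.414) and 1.34 in Bcat_Only (1.33 to 1.35), so Col1a1 exceeded Col3a1 per base in Met_Bcat and the reverse held in Bcat_Only. Col4a5 to Col4a6 was 0.942 in Met_Bcat (0.863 to 1.03) and 4.59 in Bcat_Only (3.94 to 5.35). Col8a1 to Col8a2 was 12.6 in Met_Bcat (7.34 to 21.7) and 1.63 in Bcat_Only (1.55 to 1.73). Col6a4 to Col6a3 was 0.555 in Met_Bcat (0.465 to 0.662) and 0.0151 in Bcat_Only (0.00970 to 0.0234), and Col6a1 to Col6a3 was 22.6 in Met_Bcat (20.5 to 25.01) and 9.38 in Bcat_Only (8.91 to 9.88). Intervals of these ratios use the normal approximation for log counts.

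**Figure D4:**
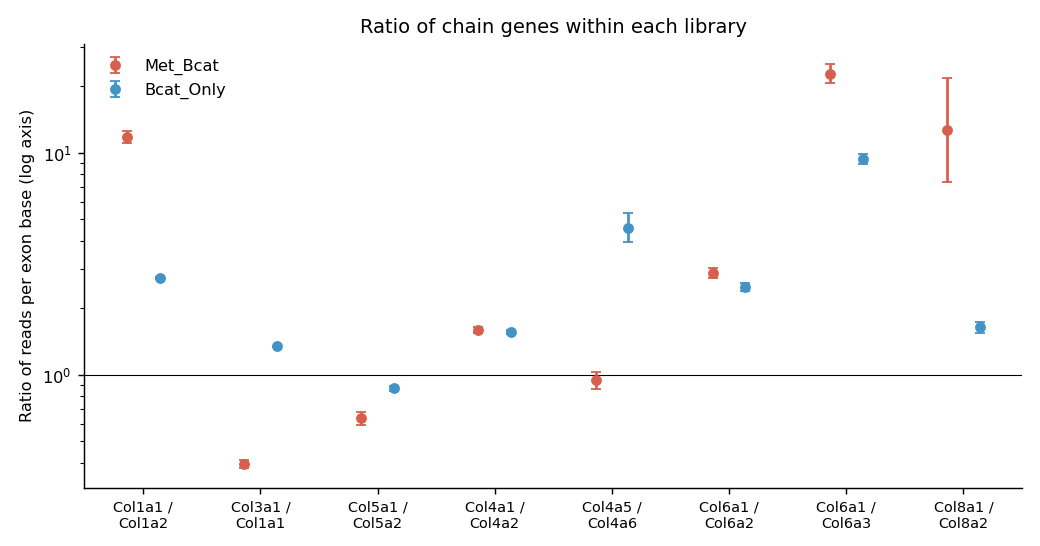
Ratio of reads per exon base between pairs of collagen genes (y axis, log axis) in the Met_Bcat library (left point of each pair) and the Bcat_Only library (right point), with 95% intervals for counting error. The Col4a1 to Col4a2 ratio is 1.59 and 1.56 in the 2 libraries, whereas Col1a1 to Col1a2 is 11.7 in Met_Bcat and 2.72 in Bcat_Only.

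Levels per kilobase of exon gave a different order of collagens in the 2 libraries. In Met_Bcat the order was Col4a1 at 84.6, Col4a2 at 53.3, Col1a1 at 47.8, Col6a1 at 38.8, Col18a1 at 19.7, Col3a1 at 19.0005 and Col17a1 at 16.5 CPM per kb. In Bcat_Only it was Col3a1 at 1250, Col1a1 at 934, Col1a2 at 343, Col4a1 at 175, Col4a2 at 112, Col12a1 at 104 and Col5a2 at 81.9 CPM per kb. Without replicates, whether neighbours in either order differ beyond the spread between mice is unknown.

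Sequence sets the fibrillar class apart from the others, whose repeat lengths overlap. The longest open reading frame of each member's protein-coding transcripts (GENCODE vM21) was searched for unbroken runs of glycine-X-Y. The longest run was 216 to 344 triplets in the 11 fibrillar genes, with 344 in Col3a1, 338 in Col1a1 and 339 in Col1a2. It was 30 to 75 triplets in the basement membrane genes, 37 to 87 in the network genes, 32 to 113 in the FACIT genes and 40 to 55 in the transmembrane genes. Basement membrane genes had 13 to 27 runs of at least 3 triplets, with a median of 23, against medians of 3 to 7 in the 4 other classes. Their range was shared by Col16a1, Col17a1 and Col19a1 of other classes, with 23, 22 and 13 runs, and by Col28a1 with 17. Within the fibrillar class repeat length did not order the ratios: Col5a3 and Col11a2, with 337 and 338 triplets, were not called, while Col24a1 and Col27a1, with 216 and 217, were lower.

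The biosynthesis list covers genes that modify, fold, export, process and cross-link collagen chains. Of 35 listed genes 32 were measured, 17 lower, 1 higher and 14 neither, with a median log2 ratio of −1.25. The shares over all measured genes were 14.6% lower and 4.42% higher. Among the hydroxylases that modify prolines and lysines, P4ha3 had 5 reads in Met_Bcat and 464 in Bcat_Only, 106-fold lower (45.2 to 328). The broadly used prolyl hydroxylase subunits P4ha1 and P4ha2 had 85.9 and 69.9 CPM in Met_Bcat and 113 and 90.6 CPM in Bcat_Only and were not called. P4hb, which also acts as a general disulfide isomerase, had 1869 CPM in Met_Bcat and 1400 CPM in Bcat_Only. Serpinh1, the collagen chaperone HSP47, had 155 CPM in Met_Bcat and 609 CPM in Bcat_Only, 3.93-fold lower (3.78 to 4.09). Fkbp10, Fkbp14 and Crtap, which help collagen fold, were 4.38-fold, 3.90-fold and 3.81-fold lower. Of the 6 chaperone genes 4 were thus lower and 2 were not called. The latter were Ppib, with 331 CPM in Met_Bcat and 301 CPM in Bcat_Only, and P3h4, with 10.2 and 18.3 CPM in that order. The differences of the lower chaperones were smaller than those of Col1a1, Col1a2 and Col3a1.

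Of 8 propeptide processing genes 7 were measured and 5 were lower, and of 5 cross-linking genes 3 were lower and 1 higher. Pcolce, the enhancer of procollagen C-proteinase, had 41.5 CPM in Met_Bcat and 173 CPM in Bcat_Only, 4.17-fold lower (3.87 to 4.50), and Bmp1, that proteinase, was 2.98-fold lower (2.81 to 3.15). Pcolce2 had 0 reads in Met_Bcat and 39 in Bcat_Only, at least 14.9-fold lower against the floor of 3 reads per library, or 11.5-fold at the near end of its counting interval. The lysyl oxidases cross-link fibrils. Lox had 259 reads in Met_Bcat and 18652 in Bcat_Only, Loxl1 51 and 2680 (60.1-fold lower, 45.6 to 80.9) and Loxl3 84 and 1108 (15.1-fold lower, 12.1 to 19.1), in that order. Loxl4, the one higher gene of the list, had 1134 reads in Met_Bcat and 195 in Bcat_Only, 5.08-fold higher (4.36 to 5.95), and Loxl2 had 84.8 CPM in Met_Bcat and 161 CPM in Bcat_Only and was not called. The family thus contained genes in both directions. None of the 3 measured export genes was called, with log2 ratios of 0.71 for Mia2, 0.43 for Klhl12 and −0.40 for Sec23a. The export gene Mia3 had 0 reads in both libraries, counted on a row outside the assembled chromosomes.

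Of the 10 collagen receptor genes 9 were measured, with a median of −1.18. Lower were 4 of them and higher 0, against 14.6% and 4.42% of all measured genes. Among the collagen-binding integrin subunits, Itga11 had 56 reads in Met_Bcat and 343 in Bcat_Only, 7.01-fold lower (5.27 to 9.47). Itga1 was 3.45-fold lower and Itga2 2.65-fold lower. The discoidin domain receptors differed: Ddr2, the mesenchymal receptor, had 49.1 CPM in Met_Bcat and 138 CPM in Bcat_Only, 2.81-fold lower (2.62 to 3.03), while Ddr1, the epithelial one, had 246 CPM in Met_Bcat and 150 CPM in Bcat_Only and was not called. Of 8 breakdown genes 4 were lower and 0 higher, with a median of −1.19. Mmp8, the neutrophil collagenase, had 64 reads in Met_Bcat and 5806 in Bcat_Only, 104-fold lower (81.1 to 135). The gelatinase gene Mmp9, the collagen uptake receptor gene Mrc2 and the cathepsin gene Ctsk were 6.70-fold, 4.84-fold and 2.52-fold lower, and Mmp2 and Mmp14 were not called.

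Markers of mesenchymal cell types moved with the lower collagens. For comparison, 14.6% of all measured genes were lower and 4.42% higher. Of 12 fibroblast markers that are no collagens 11 were lower, with a median log2 ratio of −3.02 and a summed level of 679 CPM in Met_Bcat and 4300 CPM in Bcat_Only. The sum was 6.34-fold lower, against 31.2-fold for the fibrillar collagens, but the medians of the 2 sets were 8.13-fold and 9.65-fold lower. All 8 smooth muscle markers were lower, with a median of −4.88 and a sum of 63.2 CPM in Met_Bcat and 601 CPM in Bcat_Only. Of 7 endothelial markers 5 were lower (median −1.21, sum 381 and 557 CPM in Met_Bcat and Bcat_Only), but 2 with total counts and 0 at 4-fold. Of 5 pericyte markers 3 were lower (median −1.72, sum 135 and 279 CPM), and 0 at 4-fold. Of 6 Schwann cell and nerve markers 5 were measured and 3 were lower (median −2.04, sum 124 and 226 CPM). Of 8 cartilage and bone markers 3 were measured and 1 was lower (median −0.61, sum 174 and 158 CPM), most of the sum being Sox9. Of 10 luminal epithelial markers 1 was lower and 3 higher, with a median of 0.39 and a sum of 5912 CPM in Met_Bcat and 3615 CPM in Bcat_Only. No listed marker of fibroblasts or smooth muscle was at 0 in either library, but some were near the floor of 3 reads in Met_Bcat. Dpt had 1 read in Met_Bcat and 1601 in Bcat_Only, Cnn1 5 and 249 and Lmod1 6 and 164. The part of fibroblasts and smooth muscle cells in the collagen ratios was not tested.

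**Figure D5:**
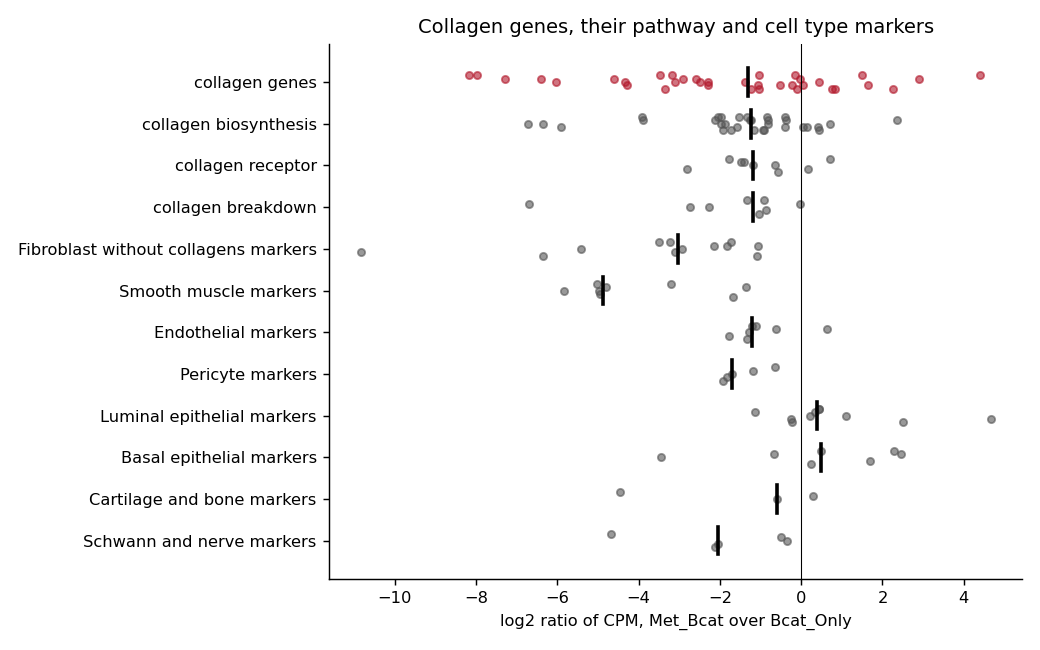
Log2 ratio of CPM, Met_Bcat over Bcat_Only (x axis), of each gene averaging at least 1 CPM, for the collagen genes, for the lists of collagen biosynthesis, receptor and breakdown genes and for cell type markers; points are genes and bars are medians. The medians run from −4.88 for smooth muscle markers to 0.48 for basal epithelial markers, and that of the collagen genes is −1.32.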

How the data were processed

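The authors deposited raw read counts for each gene, 1 column per library, beside mm9 coordinates and a total exon length, per the file headers. TopHat2 (version 2), edgeR and HTSeq appear in the submitters' processing notes with the build mm9, while no source used here gives alignment settings or whether counting used strand; the library kit was a stranded mRNA kit, per the labels' protocols. Columns were matched through the sample number in the labels. The exon length (other: bases per gene, deposited by the authors) served only for levels per kilobase and for the ratios between chain genes.

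Library sizes were scaled with TMM (edgeR 4.0.16, R 4.3.3). Ratios of Met_Bcat over Bcat_Only carry exact Clopper-Pearson intervals, and counting intervals and floors take reads as independent although PCR copies are not. A count of 0 was set to 3 reads (0.142 CPM in Met_Bcat, 0.163 CPM in Bcat_Only), and genes at or under this floor with a count of 0 were given no ratio. Newer symbols were matched by Ensembl identifier for 9 listed genes, and all listed genes were found. All members were described. Of the pathway lists, the text names up to 6 genes with the largest near interval ends, the higher ones and some others chosen after their values were seen. Members and lists were chosen with earlier results of these data known. The calling rule was run on counts simulated with counting error only, which is what the intervals assume. It recovered 82% of genes set to a log2 ratio of 1.5 and 84% of those set to −1.5. Such counts hold no spread between mice, so they cannot show how often calls from 1 library per genotype are wrong. Alternatives were total-count, DESeq2-type and luminal-marker scaling, other minimum levels, a pseudocount of 0.5 CPM, a 4-fold rule and leaving out Col1a1, Col1a2 and Col3a1.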

Additional observations from a re-analysis of the deposited data

How the results depend on the processing

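With 1 library per genotype, leaving out a replicate was impossible. No paired analysis was possible because each genotype has 1 library. The ratios of all 36 measured collagen genes kept their call with DESeq2-type size factors. Total counts raised every log2 ratio by 0.13 and gave 18 lower and 5 higher collagen genes (all genes: 1902 and 773 of 14342). Scaling to luminal markers moved every log2 ratio by −0.39 and gave 21 lower and 4 higher. No called gene changed sign under these scalings. With total counts the medians were 0.96 for transmembrane collagens, −1.11 for biosynthesis and −1.05 for breakdown genes. Scaled to luminal markers they were −2.69 for network and 0.44 for transmembrane collagens, −1.64 for biosynthesis, −1.57 for receptor and −1.58 for breakdown genes, 7 of which were then lower. With no minimum level, the medians were −3.27 for network, −0.65 for FACIT and 0.43 for transmembrane collagens, and 22 collagen genes were lower and 6 higher (all genes: 2432 and 732 of 19883). With a minimum of 5 CPM, 18 collagen genes were lower and 3 higher (all genes: 1557 and 433 of 11949), with medians of −2.40 over all, −3.82 for fibrillar, −3.32 for network, −2.60 for FACIT and 1.16 for transmembrane collagens; the collagen share of reads in Met_Bcat was 0.275% and the transmembrane share of collagen reads in Bcat_Only 0.259%. Adding 0.5 CPM to each level turned the direction of none of the 36 measured collagen genes and gave a median of −2.84 for fibroblast markers, but moved 5 ratios by over 1.5 times, to log2 values of −6.72 for Col11a1, −4.51 for Col6a5, −6.48 for Col8a2, −2.02 for Col28a1 and 2.58 for Col22a1. With the 4-fold rule Col6a2, Col7a1, Col4a1, Col4a2, Col23a1 and Col28a1 were no longer called, 3 collagen genes were higher, and 5 biosynthesis genes and 1 receptor gene lower. Without Col1a1, Col1a2 and Col3a1 the collagen share was 0.223% of reads in Met_Bcat and 0.687% in Bcat_Only. That share counts only members averaging at least 1 CPM. Fewer genes enter at a higher minimum; other causes were not tested. Members with under 10 reads in a library, such as Col11a1, Col6a5 and Col22a1, have wide intervals.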
